A study of Mus musculus with 6 samples.

Results

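Prostanoids are lipid signals made from arachidonic acid, and 10 mouse genes of their synthesis and sensing are described here, chosen by gene name: the receptor genes Ptgir, Ptger2 and Ptger4, the cyclooxygenase genes Ptgs1 and Ptgs2, the terminal synthase genes Ptges, Ptgis, Tbxas1 and Hpgds, and the 5-lipoxygenase gene Alox5. All 10 were found, each as 1 record, among the 51912 gene records of the deposited tables. They were measured by RNA-seq in bone marrow mononuclear cells of mice whose genotype the labels give as wild type, grown for 10 days on the material hHVS (n = 3 libraries) or on PCL (n = 3 libraries). The labels do not spell out hHVS; PCL usually stands for the polyester polycaprolactone. Nothing in the labels ties the libraries of 1 group to separate cultures or animals. The p-values and SDs therefore measure only the spread between these libraries, which may be technical.

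The members were proposed with the difference between hHVS and PCL in view. Their differences between the materials are therefore a description, with no test of their own. On hHVS the prostacyclin receptor gene Ptgir stood at 2.53 times its PCL level, while the cyclooxygenase gene Ptgs1 stood at 0.539 times its PCL level. The 2 most abundant members, the synthase genes Hpgds and Tbxas1, stood at 0.891 and 0.877 times their PCL levels, and transcripts of the receptors of their products were at or near 0 in every library. The prostacyclin synthase gene Ptgis was near the detection floor on both materials.

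Prostanoid synthesis starts when a phospholipase, chiefly the cytosolic enzyme encoded by Pla2g4a, frees arachidonic acid from membranes. A cyclooxygenase (Ptgs1, the constitutive form, or Ptgs2, the form induced by inflammatory stimuli) turns it into prostaglandin H, from which terminal synthases make prostaglandin E, prostaglandin D, prostacyclin or thromboxane. Each product has its own G protein-coupled receptors. The receptors encoded by Ptgir, Ptger2 and Ptger4 act mainly through the G protein Gs, which raises cyclic AMP, and in macrophages this signal is known for restraining inflammatory cytokine production. 5-lipoxygenase draws on the same arachidonic acid to make leukotrienes.

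The promoters of 3 members are shown because the results turn on them: Ptgir, whose groups stood farthest apart on the log2 scale among members well above the detection floor, and the cyclooxygenase genes Ptgs1 and Ptgs2, of which Ptgs1 had the higher level in every library. The sequences are RefSeq's on GRCm38.p6, from 250 bases before to 50 after the annotated start, 5′ to 3′ on the gene's strand, and capitals mark matches on either strand to the motifs named after them.
Ptgir (chr7:16906240-16906539, + strand): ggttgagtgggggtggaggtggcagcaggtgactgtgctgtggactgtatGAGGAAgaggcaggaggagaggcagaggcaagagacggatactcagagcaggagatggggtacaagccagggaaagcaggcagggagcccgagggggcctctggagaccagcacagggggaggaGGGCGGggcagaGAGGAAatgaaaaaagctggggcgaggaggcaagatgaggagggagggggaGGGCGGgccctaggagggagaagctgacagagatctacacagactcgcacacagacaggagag
Ptgs1 (chr2:36230176-36230475, + strand): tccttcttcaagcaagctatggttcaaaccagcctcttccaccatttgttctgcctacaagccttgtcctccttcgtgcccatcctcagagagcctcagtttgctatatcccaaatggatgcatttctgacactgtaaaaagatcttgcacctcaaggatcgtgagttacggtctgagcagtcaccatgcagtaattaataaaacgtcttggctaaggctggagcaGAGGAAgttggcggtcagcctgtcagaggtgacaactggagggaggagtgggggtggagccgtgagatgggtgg
Ptgs2 (chr1:150099781-150100080, + strand): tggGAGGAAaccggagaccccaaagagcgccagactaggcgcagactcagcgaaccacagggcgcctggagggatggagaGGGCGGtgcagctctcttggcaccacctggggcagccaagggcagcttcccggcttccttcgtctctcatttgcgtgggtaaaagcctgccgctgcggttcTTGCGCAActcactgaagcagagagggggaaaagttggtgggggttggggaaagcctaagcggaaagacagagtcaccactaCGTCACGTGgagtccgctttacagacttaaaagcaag

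The motifs searched on both strands were the GC box GGGCGG (present in 35.7% of 32851 promoters of the same length), the TATA box TATAAA (13.6%), the cAMP response core TGACG (20.8%), the C/EBP site TTGCGCAA (0.183%), the E box CACGTG (7.15%) and the purine-rich ETS site GAGGAA (28.3%). The Ptgir window held 2 GC boxes and 2 purine-rich ETS sites, and none of the other letters. The Ptgs1 window held 1 purine-rich ETS site only. The Ptgs2 window held 1 match to each motif but the TATA box; its cAMP response core and its E box share bases and appear as 1 run of capitals. GC content was 62.0% for Ptgir, 50.7% for Ptgs1 and 59.3% for Ptgs2, against a median of 52.7% over all promoters. RefSeq windows were matched for 9 of the 10 members. A match is a description of letters, not a bound site.

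The cells were checked against marker lists. Of 9 records of mononuclear phagocyte markers (Csf1r, Cd68, Adgre1, Lyz2, Fcgr1, Mertk, Itgam and Ptprc, with Itgam on 2 records), 0 were at 0. Their summed level, most of it Lyz2, was 19700 to 21000 CPM (counts scaled to 1000000 per library) on hHVS and 15300 to 17800 CPM on PCL. The summed level of 9 mast cell and basophil markers was 2.29 to 2.43 CPM on hHVS and 3.12 to 3.7 CPM on PCL, with Fcer1a, Tpsb2, Tpsab1 and Cma1 at 0 in all 6 libraries. The 8 lymphocyte markers summed to 0.946 to 1.85 CPM on hHVS and 1.02 to 1.26 CPM on PCL, and the 7 dendritic cell markers to 463 to 485 CPM on hHVS and 339 to 572 CPM on PCL. Nearly all of the dendritic cell sum was Itgax (475 ± 11.8 CPM on hHVS and 461 ± 117 CPM on PCL, SD, n = 3 each). The next highest of these markers, Clec9a, averaged 1.75 CPM on hHVS and 1.38 CPM on PCL. Estimated counts summed to between 75060282 and 83610940 per hHVS library and between 72098396 and 74131069 per PCL library, with about 4 units of the table per sequenced fragment. Over all genes, 141 of 16364 passed edgeR's quasi-likelihood test at an adjusted p under 0.05 (0.862%), 92 higher (0.562%) and 49 lower (0.299%) on hHVS. Scaled by library totals instead, 71 were higher and 74 lower. The edgeR total of 141 was 32, 63 and 33 without hHVS replicates 1, 2 and 3, and 55 and 45 without PCL replicates 1 and 2. PCL replicate 3 stood apart from the other PCL libraries: their counts differed by a chi-square per gene of 30.4 and 33.1, against 11.7 to 16.6 for the other pairs within a group. Without it 154 genes were called, and the members' log2 fold changes were 1.25 for Ptgir, 0.07 for Ptger2, -0.98 for Ptgs1, -1.27 for Ptgs2, 0.01 for Ptges, -0.20 for Tbxas1 and -0.22 for Hpgds; those of the other 3 are given with their values.

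**Figure D1:**
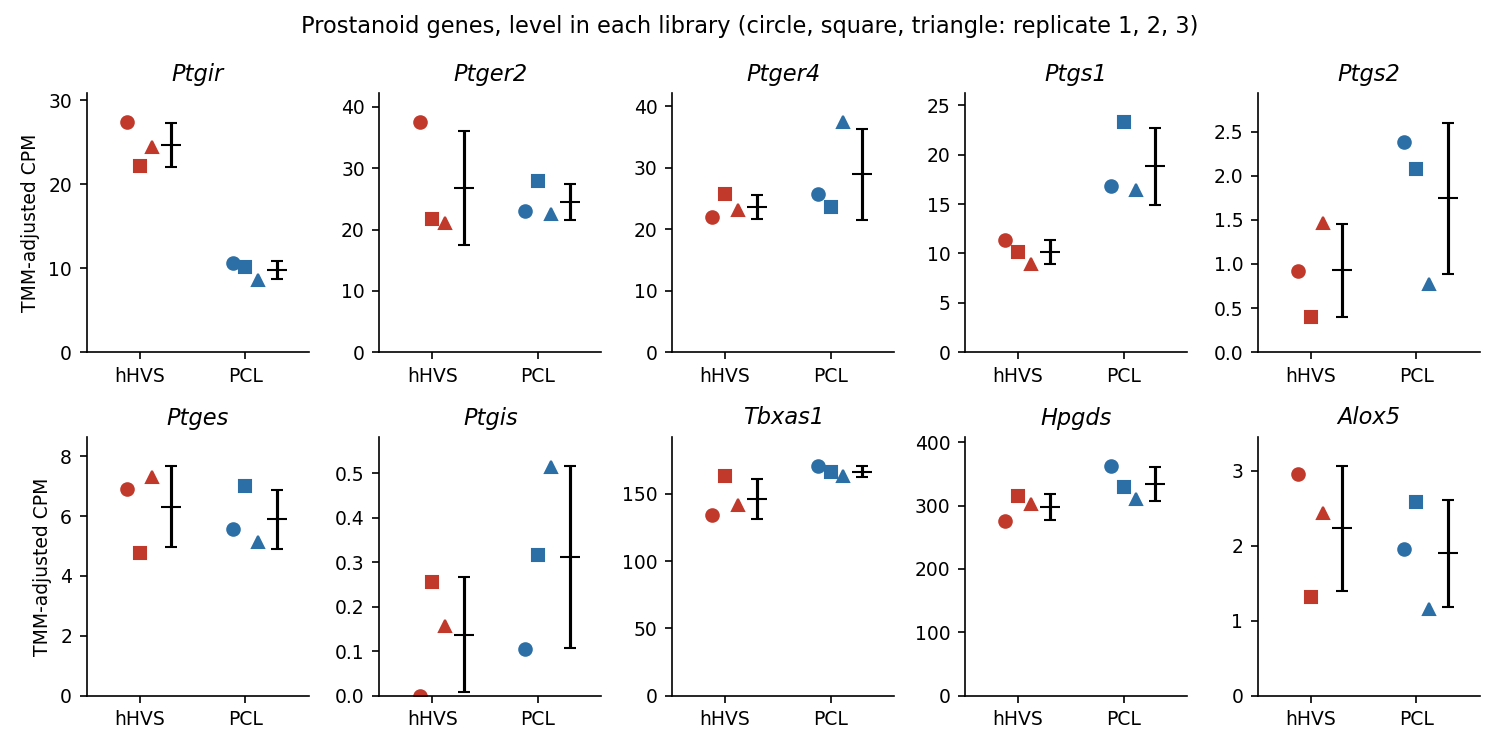
Level of each member in TMM-adjusted CPM (y axis from 0, own scale in each panel) in the 3 hHVS and 3 PCL libraries, with mean and SD as a bar beside the points. Ptgir lies between 22.2 and 27.4 CPM on hHVS and between 8.59 and 10.6 CPM on PCL, Ptgs1 lies lower on hHVS, and the groups of 7 members overlap.

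Ptgir (chr7:16906490-16910905 on GRCm38, + strand) encodes the receptor of prostacyclin. It was at 27.4, 22.2 and 24.5 TMM-adjusted CPM in hHVS replicates 1, 2 and 3, and at 10.6, 10.2 and 8.59 CPM in PCL replicates 1, 2 and 3. Every hHVS library lay above every PCL library, and the spread within a group was small (coefficient of variation 10.7% on hHVS and 10.9% on PCL). The log2 fold change, hHVS minus PCL, was 1.34 ± 0.13 (SE from the edgeR fit), and it ranged from 1.25 to 1.41 with any 1 library left out. The summed mononuclear phagocyte markers were also higher on hHVS without overlap. Most of that sum was Lyz2 (13300 ± 685 CPM on hHVS and 9680 ± 1130 CPM on PCL, SD, n = 3 each). Of the 9 records, 3 lay apart that way, beside 10.7% of all genes tested. They were Lyz2, Mertk (265 ± 1.84 CPM on hHVS, against 199 ± 22.9 CPM on PCL) and Adgre1 (1330 ± 17.4 CPM on hHVS and 1160 ± 25.8 CPM on PCL). By edgeR 0 of the 9 were called. Csf1r was at 2060 ± 39.5 and 2160 ± 103 CPM and Cd68 at 2220 ± 43.0 and 2130 ± 86.2 CPM on hHVS and on PCL. The part of these markers in the level of Ptgir was not tested. In bulk RNA, more cells of a type and more RNA per cell cannot be told apart.

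Ptger2 (chr14:44988195-45003820) and Ptger4 (chr15:5206661-5244187) encode the receptors of prostaglandin E that share Gs signalling with the prostacyclin receptor. Ptger2 was at 37.5, 21.8 and 21.1 CPM on hHVS and at 23.0, 27.9 and 22.6 CPM on PCL. The groups overlapped, and hHVS replicate 1 stood above the other 5 libraries. Its log2 fold change was 0.13 ± 0.23 (SE), and it turned to -0.19 without that library. Ptger4 was at 22.0, 25.7 and 23.1 CPM on hHVS and at 25.7, 23.6 and 37.4 CPM on PCL. The groups overlapped again, here with PCL replicate 3 above the rest, and the log2 fold change was -0.29 ± 0.18 (SE), or -0.06 without that library. Of the merged exon bases of Ptger4, 15.3% are shared with the pseudogene Gm15937 on the opposite strand, so part of its value is uncertain.

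Among these Gs-coupled receptors, the makeup of the transcript pool differed with the material. Levels between genes were compared per length, in the deposited FPKM (fragments per kilobase of exon per 1000000 fragments). Ptgir held 37.9%, 40.5% and 44.4% of the summed FPKM of the 3 receptor genes in hHVS replicates 1, 2 and 3, and 23.9%, 21.4% and 17.9% in PCL replicates 1, 2 and 3. The mean share of Ptger2 was 39.2% ± 6.72 on hHVS and 47.8% ± 5.39 on PCL, and that of Ptger4 was 19.9% ± 4.25 on hHVS and 31.1% ± 7.31 on PCL (SD, n = 3 each). The FPKM of Ptgir was 1.72 to 2.49 times that of Ptger4 on hHVS and 0.457 to 0.856 times on PCL, so on this scale their order was opposite on the 2 materials. With levels rescaled to the longest transcript of each gene, the ratio was 1.42, 0.984 and 1.21 on hHVS and 0.471, 0.49 and 0.262 on PCL. The groups stayed apart there, but Ptgir lay just under Ptger4 in hHVS replicate 2. The Ptgir share on that scale was 29.1% to 34.3% on hHVS and 12.3% to 17.0% on PCL. The summed deposited FPKM of the 3 genes was 14.6 to 18.9 on hHVS and 12.4 to 13.5 on PCL. These shares contain the change of Ptgir by which it was chosen.

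**Figure D2:**
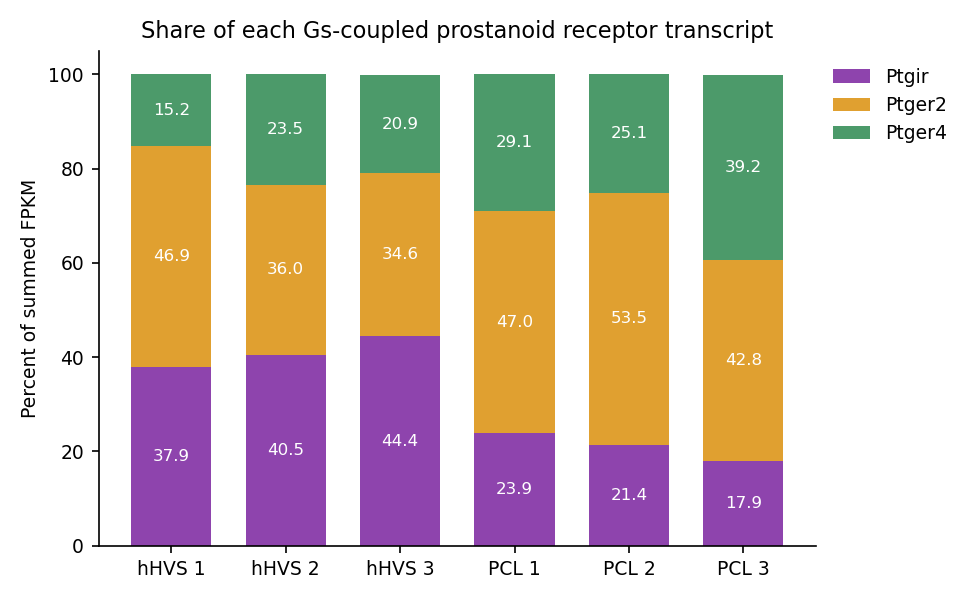
Share of Ptgir, Ptger2 and Ptger4 in their summed FPKM (percent, stacked to 100) in each library, hHVS libraries on the left. The Ptgir share is 37.9% to 44.4% on hHVS and 17.9% to 23.9% on PCL.

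Of the cyclooxygenase genes, Ptgs1 (chr2:36230426-36252272) was at 11.4, 10.2 and 8.92 CPM on hHVS and at 16.8, 23.3 and 16.4 CPM on PCL. All hHVS libraries lay below all PCL libraries. The log2 fold change was -0.89 ± 0.17 (SE), and it ranged from -0.98 to -0.71 with 1 library left out. Ptgs1 is abundant in platelets and their precursors. The summed level of 7 megakaryocyte and platelet markers was higher on hHVS without overlap (61.5 to 78.4 CPM, against 36.2 to 56.3 CPM on PCL). Most of that sum was Pf4. Of the 7, only Pf4 lay apart that way, beside 10.7% of all genes tested, and the groups of every other marker overlapped. By edgeR 0 of the 5 tested were called. The part of these markers in the level of Ptgs1 was not tested. Ptgs2 (chr1:150100031-150108227) was at 0.917, 0.4 and 1.46 CPM on hHVS and at 2.38, 2.08 and 0.773 CPM on PCL. Its groups overlapped, PCL replicate 3 lying within the hHVS range, and its log2 fold change was -0.91 ± 0.56 (SE). The FPKM of Ptgs1 exceeded that of Ptgs2 in all 6 libraries, by 7.21 to 30.1 times on hHVS and 8.31 to 25.4 times on PCL.

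The terminal synthases spanned the widest range of levels. Hpgds (chr6:65117293-65144908), which encodes the hematopoietic synthase of prostaglandin D, was at 275, 316 and 303 CPM on hHVS and at 363, 329 and 311 CPM on PCL. The groups overlapped through hHVS replicate 2 and PCL replicate 3, and the log2 fold change was -0.17 ± 0.09 (SE). Tbxas1 (chr6:38875404-39084585), the thromboxane synthase gene, was at 134, 163 and 142 CPM on hHVS and at 171, 166 and 163 CPM on PCL. The hHVS libraries lay below the PCL libraries, although the highest on hHVS and the lowest on PCL round to the same value, and the log2 fold change was -0.19 ± 0.09 (SE). Mast cells are another known source of Hpgds. Their summed markers were also lower on hHVS without overlap, most of the sum being Gata2 (2.14 ± 0.132 CPM on hHVS, against 2.98 ± 0.183 CPM on PCL), and their part in the level of Hpgds was not tested.

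Ptges (chr2:30889471-30929863), the inducible synthase gene of prostaglandin E, was at 6.89, 4.77 and 7.29 CPM on hHVS and at 5.56, 6.99 and 5.12 CPM on PCL. The groups overlapped fully (log2 fold change 0.10 ± 0.21, SE), and the sign turned to -0.01 without hHVS replicate 3. Ptgis (chr2:167191805-167240604), the prostacyclin synthase gene, had 0, 21 and 12 units of estimated count on hHVS and 8, 23 and 40 units on PCL. A floor of 3 fragments is 12 units, so hHVS replicate 1 and PCL replicate 1 lay below it and hHVS replicate 3 on it. The fitted log2 fold change was -1.17 ± 1.08 (SE), with a range of -1.96 to -0.6 when 1 library was left out (-0.6 without PCL replicate 3) and a value of -1.92 by limma-voom, and a difference in Ptgis was not detectable at this depth. Prostacyclin synthase is known from endothelial and stromal cells, whose 11 markers summed to 17.5 to 59.5 CPM on hHVS and 49.5 to 154 CPM on PCL. Of the 11, 4 were lower on hHVS without overlap, beside 9.89% of all genes tested, and 0 were at 0 in all libraries. By edgeR 0 of the 10 tested were called. The part of these markers in Ptgis and Ptgs2 was not tested.

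By edgeR, 1 of the 10 members, Ptgir, was called higher on hHVS and 0 were called lower, beside 0.862% of all genes tested. DESeq2 called 2 (Ptgir and Ptgs1), beside 5.09% of genes, and limma-voom 1 (Ptgir), beside 0.776%. The groups did not overlap in 3 members (Ptgir above PCL, Ptgs1 and Tbxas1 below), beside 20.6% of all genes tested (10.7% above and 9.89% below). Since the contrast was known when the members were chosen, nothing is read from these counts. The median log2 fold change was -0.18 over the 10 members and -0.01 over all genes tested. All 10 passed the filter on low counts.

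The order of the members by level was not used to choose them. By mean log2 FPKM over the 6 libraries it ran Hpgds, Tbxas1, Ptger2, Ptgir, Ptger4, Ptgs1, Ptges, Alox5, Ptgs2, Ptgis. Mean FPKM was 44.6 for Hpgds, 15.6 for Tbxas1, 6.29 for Ptger2 and 4.63 for Ptgir. It was 3.59 for Ptger4, 3.39 for Ptgs1 and 1.40 for Ptges, and under 1 for Alox5 (0.447), Ptgs2 (0.264) and Ptgis (0.0778). Of the 9 neighbouring pairs in this order, 4 kept 1 direction in all 6 libraries: Hpgds above Tbxas1 (log2 difference 1.51 ± 0.07, SD, of FPKM + 0.1), Tbxas1 above Ptger2 (1.32 ± 0.41), Ptgs1 above Ptges (1.15 ± 0.57) and Ptges above Alox5 (1.49 ± 0.24). Each of these 4 had an exact two-sided sign-flip permutation p of 0.0312, the smallest that 6 libraries allow, and 0.0703 after Benjamini-Hochberg adjustment over the 9 pairs, so 0 pairs passed a threshold of 0.05. The other 5 pairs crossed in at least 1 library (exact permutation p from 0.0625 to 0.594).

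The places of Ptgir and Ptgs1 in that order differed with the material. Ptgir ranked 3 of 10 on hHVS and 6 on PCL, and Ptgs1 ranked 6 on hHVS and 4 on PCL. The deposited FPKM was found to use the merged exon length of a gene, which exceeds its longest transcript 1.99-fold for Tbxas1, 1.76-fold for Ptger4 and 1.65-fold for Hpgds but only 1.01-fold for Ptgir. On the scale of the longest transcript, Hpgds, Tbxas1 and Ptger2 kept their ranks and Ptgir ranked 6 over the 6 libraries instead of 4. The same 9 pairs then held 6 of 1 direction, each with an adjusted exact permutation p of 0.0469, which passes the threshold, while the 9 neighbours of the new order held 5, each at 0.0563. Each of these pairs had an exact permutation p of 0.0312, the smallest that 6 libraries allow. Passing the threshold therefore turned on how many pairs kept 1 direction, not on the size of any difference.

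**Figure D3:**
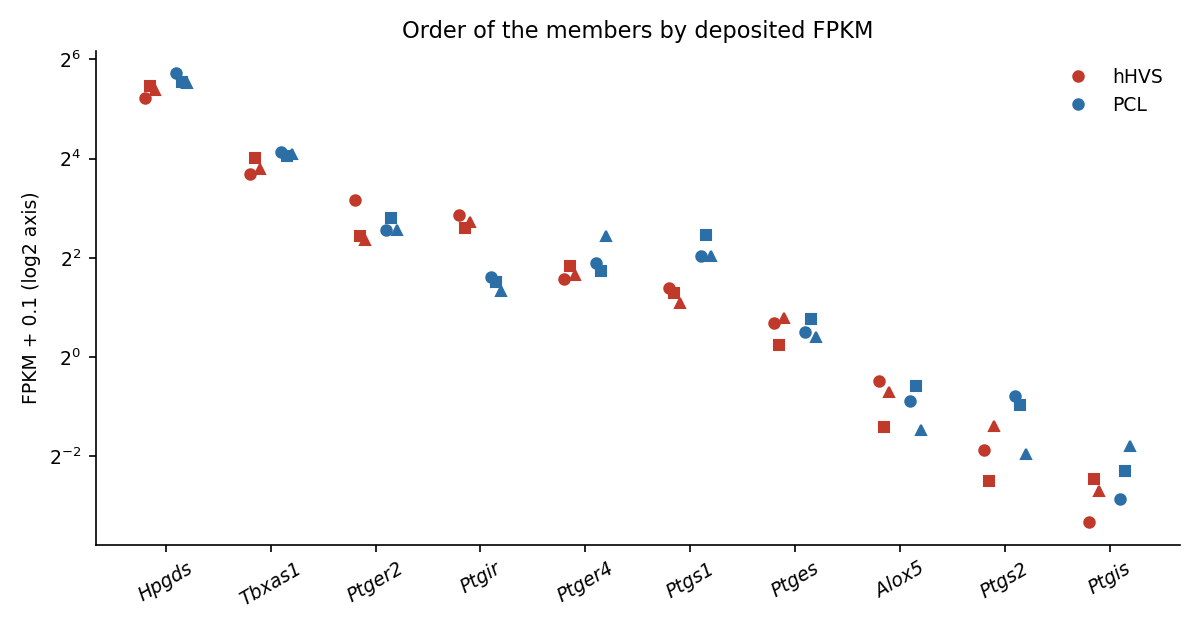
FPKM + 0.1 of the members on a log2 axis in every library, ordered by the mean over the 6 libraries, hHVS points left of PCL points (circle, square and triangle for replicates 1, 2 and 3). Hpgds and Tbxas1 lie above all other members in every library, and Ptger2, Ptgir, Ptger4 and Ptgs1 cross.

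Setting receptors beside the synthases of their ligands gave different pictures for each product. For prostaglandin E both sides were present: the FPKM of Ptger2 was 5.82, 4.9 and 3.1 times that of Ptges on hHVS and 4.43, 4.27 and 4.73 times on PCL. Ptger4 was 1.87 to 3.2 times Ptges on hHVS and 2.0 to 4.33 times on PCL. Both receptor genes exceeded Ptges in all 6 libraries, and the groups overlapped in both ratios. The other synthase genes of prostaglandin E, Ptges2 and Ptges3, were at 13.7 ± 0.647 and 93.3 ± 2.10 CPM on hHVS and at 14.4 ± 0.770 and 105 ± 7.71 CPM on PCL. Per length, Ptges2 averaged 2.51 FPKM and Ptges3 40.6 FPKM over the 6 libraries, against 6.29 for Ptger2 and 3.59 for Ptger4. By these means both receptor genes lay above Ptges2 but below Ptges3. The product of Ptges3 is also a chaperone partner, so its level is not a measure of synthase alone. For prostacyclin the receptor side alone was clearly present, the mean FPKM of Ptgir being 6.54 ± 0.613 on hHVS and 2.72 ± 0.272 on PCL, and that of Ptgis 0.0456 ± 0.0423 on hHVS and 0.110 ± 0.0750 on PCL.

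For thromboxane and prostaglandin D the synthase side alone was clearly present. The thromboxane receptor gene Tbxa2r was at 0 in every library. A count of 0 allows a level of up to 0.0505 CPM over hHVS libraries together and 0.0545 CPM over PCL libraries together. In contrast, Tbxas1 averaged 146 ± 15.1 CPM on hHVS and 167 ± 3.87 CPM on PCL. Of the receptor genes of prostaglandin D, Ptgdr had 4 units in hHVS replicate 1 and 0 in the other 5 libraries. Ptgdr2 had 0, 0 and 9 units on hHVS and 10, 7 and 12 units on PCL, none above the floor of 12 units, and 39.0% of its exon bases are shared with Ccdc86 on the opposite strand. Hpgds averaged 298 ± 20.7 CPM on hHVS and 334 ± 26.3 CPM on PCL. Ptgds, the other prostaglandin D synthase gene, had 0 counts in all 6 libraries.

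Set against Ptgs1, the more abundant cyclooxygenase transcript, Ptgir and Ptger2 stood higher on hHVS. The FPKM of Ptgir was 2.82, 2.54 and 3.22 times that of Ptgs1 on hHVS and 0.736, 0.507 and 0.609 times on PCL. Ptgir thus exceeded Ptgs1 in all 3 hHVS libraries and lay below it in all 3 PCL libraries. Ptger2 was 2.26 to 3.49 times Ptgs1 on hHVS and 1.26 to 1.45 times on PCL, again without overlap, whereas the Ptger4 ratio overlapped (1.13 to 1.52 on hHVS and 0.592 to 1.33 on PCL). These ratios carry the differences of Ptgir and Ptgs1 given above and add no separate evidence of them.

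Of the other prostanoid genes, 20 of 21 listed symbols were in the tables and 14 were tested. By edgeR 0 rose and 0 fell, beside 0.862% of all genes tested, and 3 had an unadjusted p under 0.05 (Pla2g5 and Ptgr1 higher, Slco2a1 lower), beside 13.1%. DESeq2 called 2 (Pla2g5 and Ptgr1), beside 5.09%, and limma-voom 0, beside 0.776%. The median log2 fold change of the 14 was 0.13. Ptgr1, an enzyme gene of prostaglandin and leukotriene B breakdown, was at 89.1, 76.9 and 79.4 CPM on hHVS and at 53.1, 57.7 and 60.1 CPM on PCL. Every hHVS library lay above every PCL library (log2 fold change 0.52 ± 0.09, SE, adjusted p = 0.0521, edgeR). Pla2g5 and Slco2a1 were under 1 CPM in both groups. Pla2g15, a lysosomal phospholipase gene and the most abundant of the list by FPKM, averaged 258 ± 22.3 CPM on hHVS, against 233 ± 4.37 CPM on PCL (adjusted p = 0.479, edgeR), and Pla2g4a was at 34.6 ± 1.13 and 31.0 ± 2.23 CPM on hHVS and on PCL (adjusted p = 0.471, edgeR). Hpgd, the dehydrogenase that degrades prostaglandins, was at 109, 66.2 and 110 CPM on hHVS and at 71.7, 86.9 and 128 CPM on PCL, and the groups overlapped. Ptger3, another prostaglandin E receptor gene, averaged 0.153 CPM on hHVS, against 0.483 CPM on PCL. It had 0, 12 and 24 units on hHVS and 8, 62 and 38 units on PCL, where 12 units are the floor. Its groups overlapped (log2 fold change -1.64 ± 1.15, SE, adjusted p = 0.595, edgeR).

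Alox5 (chr6:116410077-116461178) was low on both materials, at 2.95, 1.31 and 2.43 CPM on hHVS and 1.95, 2.58 and 1.16 CPM on PCL. The groups overlapped, and its log2 fold change of 0.23 ± 0.39 (SE) turned to -0.02 without hHVS replicate 1 or without PCL replicate 3. Alox5ap, whose product presents arachidonic acid to 5-lipoxygenase, was by contrast at 272, 288 and 286 CPM on hHVS and 291, 355 and 344 CPM on PCL (adjusted p = 0.334, edgeR). Per length, Alox5ap averaged 195 FPKM over the 6 libraries and Alox5 0.447 FPKM. Of 15 leukotriene and lipoxygenase genes listed beside Alox5, 11 were tested, and by edgeR 0 rose and 0 fell, beside 0.862% of all genes (median log2 fold change 0.44). Of the 11, 7 had an unadjusted p under 0.05 (5 higher and 2 lower on hHVS), beside 13.1% of all genes. DESeq2 called 2 (Dpep2 and Ggt5), beside 5.09%, and limma-voom 0, beside 0.776%. Dpep2, a dipeptidase gene of leukotriene D breakdown, was at 193, 187 and 200 CPM on hHVS and 287, 355 and 265 CPM on PCL, without overlap (log2 fold change -0.64 ± 0.11, SE, adjusted p = 0.059, edgeR). The adjusted p was 0.029 with library totals, 0.0468 on the fragment scale and 0.0356 without PCL replicate 3.

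Downstream of the Gs-coupled receptors, 22 of 24 listed genes of Gs and cyclic AMP signalling were tested. By edgeR 2 rose, Adcy3 and Rapgef3, and 0 fell, beside 0.862% of all genes tested. Of the 22, 5 had an unadjusted p under 0.05 (Adcy3, Rapgef3, Prkacb and Prkar2b higher, Pde3b lower), beside 13.1%. DESeq2 called the same 5, beside 5.09%, and limma-voom 2 (Adcy3 and Rapgef3), beside 0.776%. Pde3b, a phosphodiesterase gene, averaged 18.9 ± 0.913 CPM on hHVS, against 27.0 ± 2.92 CPM on PCL, without overlap (adjusted p = 0.0872, edgeR). The list was chosen with earlier results of these data known. The median log2 fold change of the 22 was 0.11. Adcy3, an adenylyl cyclase gene, was at 113, 122 and 111 CPM on hHVS and 60.5, 73.8 and 51.6 CPM on PCL. All hHVS libraries exceeded all PCL libraries (log2 fold change 0.90 ± 0.13, SE, adjusted p = 0.034, edgeR). It missed the threshold without any 1 hHVS library or without PCL replicate 1 (adjusted p up to 0.135, edgeR), and 22.1% of its exon bases are shared with Cenpo on the opposite strand. Rapgef3, whose product Epac is a direct target of cyclic AMP, was at 13.7, 9.89 and 11.6 CPM on hHVS and 5.58, 6.07 and 4.8 CPM on PCL. The groups did not overlap (log2 fold change 1.10 ± 0.17, SE, adjusted p = 0.0374, edgeR), but the call was lost whichever library was left out (adjusted p 0.0553 to 0.161, edgeR). Prkar1a, a regulatory subunit gene of protein kinase A and the most abundant of the list by FPKM, averaged 389 ± 10.0 CPM on hHVS, against 374 ± 5.01 CPM on PCL (adjusted p = 0.739, edgeR). Gnas, which encodes the Gs alpha subunit, averaged 770 ± 27.2 CPM on hHVS, against 828 ± 26.0 CPM on PCL (adjusted p = 0.542, edgeR).

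Of 18 genes known to respond to cyclic AMP, 16 were tested, 0 rose and 1 fell by edgeR, again beside 0.862% of all genes, with a median log2 fold change of 0.03. Of the 16, 5 had an unadjusted p under 0.05 (Vegfa and Pde4d higher, Dusp1, Rgs2 and Fos lower), beside 13.1% of all genes. DESeq2 called 3 (Dusp1, Fos and Rgs2), beside 5.09%, and limma-voom 1 (Dusp1), beside 0.776%. The gene that fell was Dusp1, a phosphatase gene of mitogen-activated kinases, at 39.7, 40.0 and 40.4 CPM on hHVS and 103, 77.7 and 112 CPM on PCL (log2 fold change -1.28 ± 0.13, SE, adjusted p = 0.0108, edgeR). Its fall was known when the list was written and is no independent evidence of the list's direction. It missed the threshold without hHVS replicate 1 or 3 (adjusted p up to 0.0684, edgeR). Junb, a transcription factor gene of the AP-1 family and the most abundant of the list by FPKM, averaged 141 ± 2.25 CPM on hHVS, against 157 ± 7.04 CPM on PCL (adjusted p = 0.398, edgeR). Rgs2, a regulator of G protein signalling, averaged 140 ± 10.9 CPM on hHVS, against 196 ± 16.1 CPM on PCL (log2 fold change -0.48 ± 0.09, SE, adjusted p = 0.0763, edgeR). The immediate early gene Fos averaged 96.8 ± 7.57 CPM on hHVS, against 132 ± 17.6 CPM on PCL (log2 fold change -0.45 ± 0.11, SE, adjusted p = 0.159, edgeR). Neither gene's groups overlapped. Vegfa, a growth factor gene, and Pde4d, a phosphodiesterase gene, had log2 fold changes of 0.69 and 0.62 (adjusted p = 0.274 and 0.333, edgeR).

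**Figure D4:**
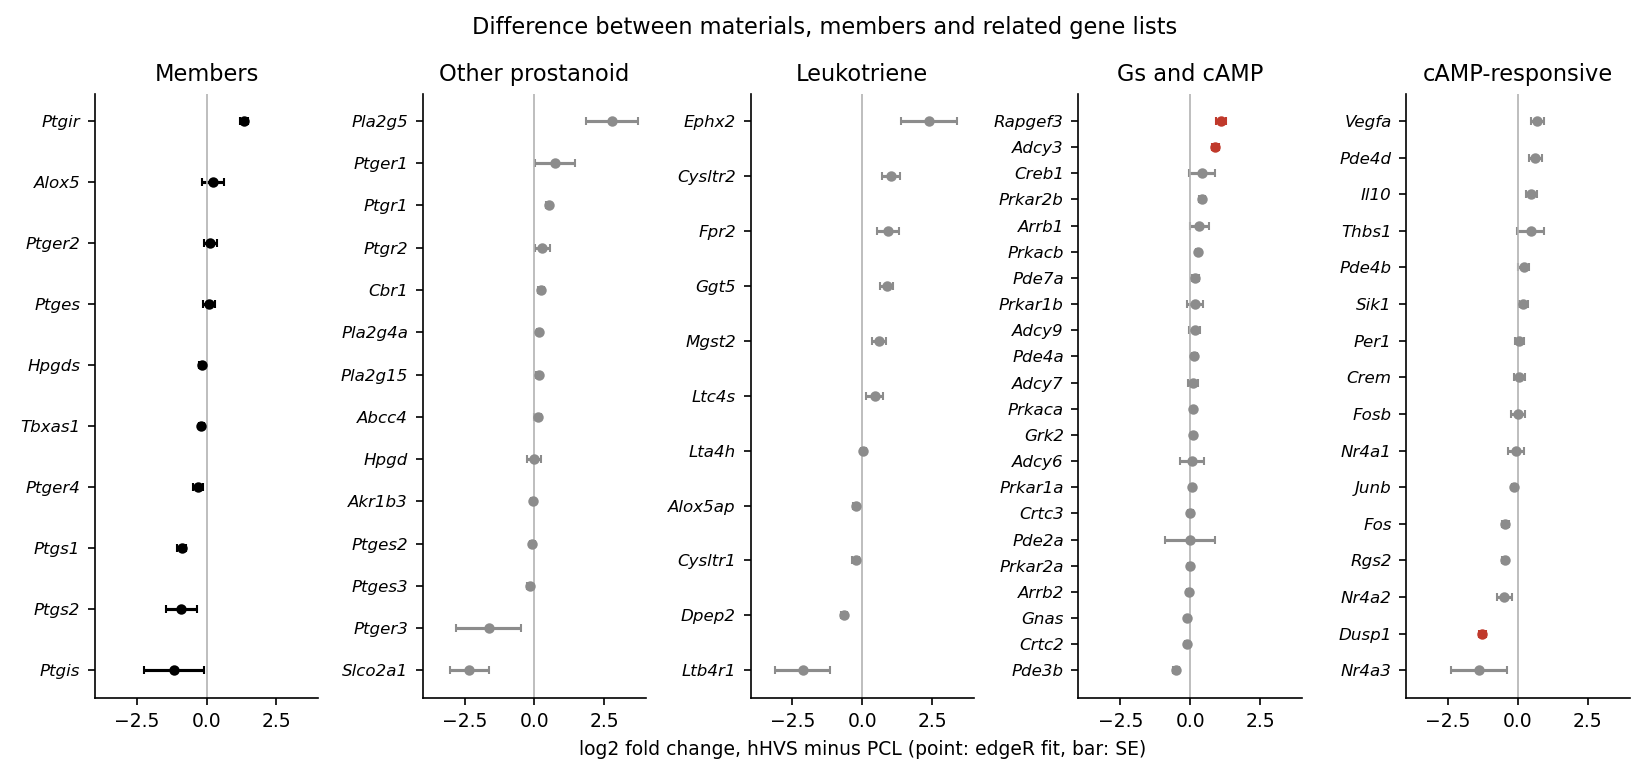
Log2 fold change, hHVS minus PCL, with its SE as a bar, for the members (black) and for the tested genes of the 4 other lists, where red marks an adjusted p under 0.05 by edgeR. Ptgir is the highest member at 1.34, and red points are Rapgef3, Adcy3 and Dusp1.

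The genes whose pattern over the 6 libraries was most like that of Ptgir were taken from 8364 others with a mean of at least 10 CPM. The measure was the root mean square difference between log2 CPM values centred on each gene's mean. The nearest were the collagenase gene Mmp8 (0.102), Rgl1, which encodes an exchange factor of the Ras family (0.109), the metalloproteinase gene Mmp27 (0.13), the ADP-ribosyl cyclase gene Bst1 (0.142) and Megf9, a membrane protein gene (0.179). The lowest hHVS value of each exceeded its highest PCL value: Mmp8 averaged 153 ± 10.6 CPM on hHVS, against 56.4 ± 3.15 CPM on PCL, and Rgl1 73.3 ± 2.07 CPM on hHVS and 31.3 ± 4.95 CPM on PCL. Such likeness rests largely on the shared difference between the materials. Mmp8 is known from neutrophils, and the 7 granulocyte markers summed to 119 to 131 CPM on hHVS and 106 to 111 CPM on PCL, most of it Csf3r, with the neutrophil genes S100a8 at 3.26 ± 0.415 and 3.69 ± 0.673 CPM and S100a9 at 3.64 ± 0.495 and 3.24 ± 0.704 CPM on hHVS and on PCL; their part in the likeness was not tested.

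**Figure D5:**
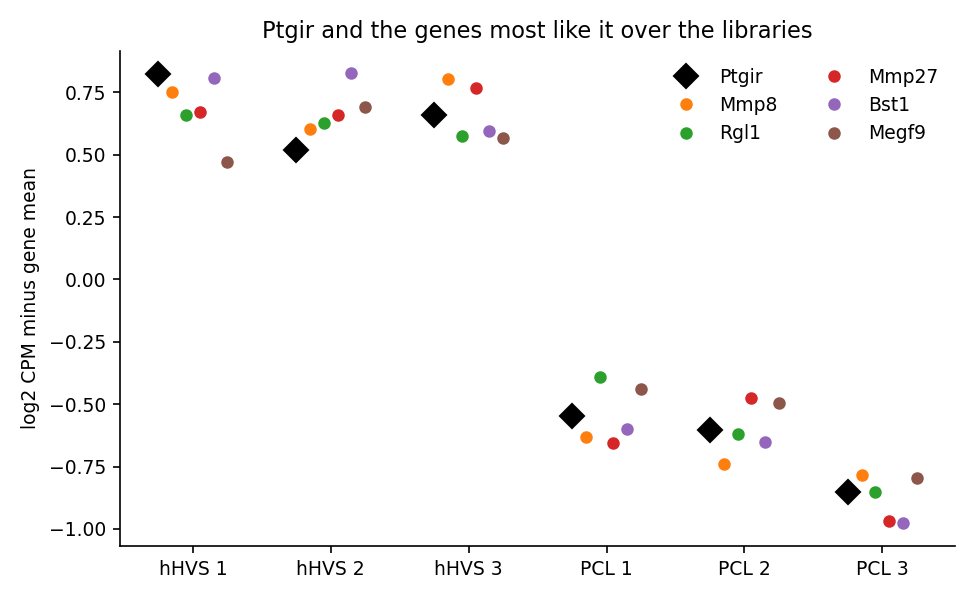
Log2 CPM of Ptgir (black diamonds) and of the 5 genes most like it, each minus its own mean over the 6 libraries, with hHVS libraries on the left. All 6 genes lie above their mean in the hHVS libraries and below it in the PCL libraries.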

How the data were processed

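Polyadenylated RNA of 6 libraries was measured (3 on hHVS, 3 on PCL, grouped by sample title), from stranded mRNA libraries per the labels' protocols. The submitters' processing notes name FastQC, MultiQC, STAR and featureCounts and the build mm10, without versions and without saying which tool wrote each table. The authors deposited estimated counts per gene as whole numbers, with about 4 units per fragment (the value 4 filled 6544 cells, against 2701 for 3 and 1483 for 5), and FPKM per gene. The implied FPKM length was 1.104 times the merged exon length of GENCODE M21 (median of 9636 genes). A test on raw counts had been planned; the estimated counts, already whole, were used as deposited, so units overstate fragments and counting noise was left to the dispersion. Floors (3 fragments, 12 units, 0.144 to 0.166 CPM per library) cover counting error only. Strand use in counting was not stated.

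Genes were filtered with filterByExpr (minimum count 10), normalized with TMM (factors 0.959 to 1.05) and fitted with edgeR 4.0.16 in R 4.3.3, group as the only term, with Benjamini-Hochberg adjustment over 16364 genes and a threshold of 0.05. SE is the absolute log2 fold change over the square root of F. Scripts were tested on simulated data. Levels between genes used log2(FPKM + 0.1) and an exact two-sided sign-flip permutation test over 6 libraries. The 6 libraries were distinct (chi-square per gene 11.7 to 33.1 within groups). DESeq2 1.42.0, limma-voom (limma 3.58.1), library totals, no filter, counts divided by 4, a replicate block and each library left out were alternatives. Members and lists were chosen with earlier results of these data known. Named were all members, receptor and synthase partners (Ptger1 is not reported here), called list genes (up to 5 by size), the most abundant gene of each list by FPKM, and the 5 genes most like Ptgir; Pla2g4a, Hpgd, Ptgr1, Pla2g5, Slco2a1, Dpep2, Ggt5, Gnas, Rgs2, Fos, Vegfa and Pde4d were added after their values were seen.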

Additional observations from a re-analysis of the deposited data

How the results depend on the processing

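Scaled by library totals instead of TMM, all members kept the sign of their log2 fold change; Ptgir was at 1.26, Ptgs1 at -0.97, Ptger2 at 0.05 and Ptges at 0.02, and the median of all genes was at -0.09, against -0.01 with TMM. Library totals called 145 genes, among them 2 members (Ptgir and Ptgs1) and 1 leukotriene gene (Dpep2). DESeq2 called 767 of 15083 genes (5.09%). Among them were 2 members (Ptgir and Ptgs1), 2 other prostanoid, 2 leukotriene, 5 Gs and cyclic AMP and 3 cyclic AMP-responsive genes. Without a filter 76 genes and 0 Gs and cyclic AMP genes were called. With counts divided by 4, 165 genes were called, among them 1 other prostanoid gene (Ptgr1) and 1 leukotriene gene (Dpep2). With 1 library left out the calls ranged from 32 to 154 over all genes, from 0 to 0 among other prostanoid genes, and from 0 to 1 in each of the leukotriene, Gs and cyclic AMP and cyclic AMP-responsive lists. In those runs 1 member, Ptgir, was called each time. Ptgir was chosen by this change, so its calls under any setting add no separate evidence of it. The 4 ordered pairs of neighbours became 4 to 5 with 1 library left out, 3 among members of at least 1 FPKM, where fewer pairs exist, and 6 on the longest transcript length, where each had an adjusted exact permutation p of 0.0469 (an alternative chosen after seeing the data). The cause of the other differences was not tested.

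The titles give both materials the replicate numbers 1 to 3, and nothing else in the labels pairs them. Deviations of same-numbered libraries correlated at 0.12, -0.01 and -0.06, and not every library correlated best with its own number. With 3 libraries per group, such correlations cannot decide whether same-numbered libraries share an animal or a batch. With the replicate block, 36 genes, 1 member (Ptgir), 0 Gs and cyclic AMP genes and 1 cyclic AMP-responsive gene were called; Adcy3 and Rapgef3 had adjusted p = 0.0592 and 0.13 there (edgeR). Depth limits Ptgis, Ptgdr, Ptgdr2 and Tbxa2r, which lay near or below the floor.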
